A study of Homo sapiens with 6 samples.

Results

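The genes described here are the expressed members of the human ZNF series, those with a symbol made of ZNF and a number and a mean of at least 5 TPM over the 6 libraries of the study. TPM is a relative transcript abundance corrected for transcript length. Of 471 such symbols among the 25662 genes of the deposited table, 115 reached that level, a further 170 lay between 1 and 5 TPM, 186 lay under 1 TPM, and 2 of those were listed at 0 in every library. The members were chosen on the measured level over both groups, so a gene can have entered through the group in which it was high. 8 of the 115 had a control mean under 5 TPM, and 5 of those 8 were called higher after treatment.

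RNA was sequenced from A375, an established human melanoma cell line, so all 6 libraries come from 1 line grown in DMEM with 10% serum. The control group of 3 libraries received the solvent DMSO, and the other group of 3 libraries received 1 µM BMH-21 for 24 hours. The compound intercalates into DNA and inhibits RNA polymerase I, which transcribes the ribosomal RNA genes. The sample titles mark the controls as time 0, while the treatment text calls them DMSO controls, so how long they were in culture is not settled.

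ZNF proteins carry C2H2 zinc fingers, short folds held by a zinc ion between 2 cysteines and 2 histidines. Arrays of such fingers read DNA, and some bind RNA or protein. Many ZNF proteins also carry a KRAB domain, which binds the co-repressor TRIM28; TRIM28 in turn brings the histone H3 lysine methyltransferase SETDB1 and heterochromatin proteins to the bound site. Such genes arose by repeated local duplication, and many lie in clusters on chromosome 19. They were grouped here by protein features, by neighbourhood and by role.

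The 8 promoters printed here belong to the genes with the largest called changes among those whose call held when each library was left out in turn and for which the RefSeq table gave a promoter, 6 called higher and 2 called lower. ZNF707 and ZNF738 also held their calls and are named only. The sequences are shown because the genes lead the results, and motif counts over all promoters are given further on. Each runs 5′ to 3′ from 120 bases before to 30 bases after the start annotated by RefSeq (GRCh38.p14), and capitals mark the letters CCGGAAG on either strand, the core that ETS family transcription factors bind. The windows are ZNF219 at chr14:21104693-21104842 on the minus strand, ZNF226 at chr19:44164980-44165129 on the plus strand, ZNF528 at chr19:52397729-52397878 on the plus strand and ZNF419 at chr19:57487630-57487779 on the plus strand, then ZNF276 at chr16:89720882-89721031 on the plus strand and ZNF655 at chr7:99558522-99558671 on the plus strand. The 2 genes called lower are ZNF511 at chr10:133308794-133308943 on the plus strand and ZNF789 at chr7:99472770-99472919 on the plus strand. The letters stand in 5 of the 6 windows of genes called higher and in neither window of genes called lower. No share over all promoters was counted for windows this short, so these counts carry no comparison by call. ZNF528 and ZNF419 had control means of 3.74 and 3.77 TPM and are members only through the BMH-21 libraries. The marked letters are among several patterns searched, which are named further on.
ZNF219: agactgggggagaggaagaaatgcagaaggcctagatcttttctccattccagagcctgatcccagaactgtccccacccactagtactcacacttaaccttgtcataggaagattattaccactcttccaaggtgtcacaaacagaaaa
ZNF226: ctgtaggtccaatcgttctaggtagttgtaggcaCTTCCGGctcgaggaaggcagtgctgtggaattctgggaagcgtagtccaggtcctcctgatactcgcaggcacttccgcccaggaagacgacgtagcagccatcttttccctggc
ZNF528: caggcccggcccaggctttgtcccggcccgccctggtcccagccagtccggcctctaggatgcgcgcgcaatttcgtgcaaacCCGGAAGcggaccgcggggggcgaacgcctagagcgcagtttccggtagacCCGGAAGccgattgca
ZNF419: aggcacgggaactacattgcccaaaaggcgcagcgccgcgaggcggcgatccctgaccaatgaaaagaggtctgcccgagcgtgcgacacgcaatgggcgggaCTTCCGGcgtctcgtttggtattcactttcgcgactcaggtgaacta
ZNF276: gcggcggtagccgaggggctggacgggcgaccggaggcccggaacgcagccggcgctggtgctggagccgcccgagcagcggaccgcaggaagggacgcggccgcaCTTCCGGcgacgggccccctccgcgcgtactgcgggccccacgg
ZNF655: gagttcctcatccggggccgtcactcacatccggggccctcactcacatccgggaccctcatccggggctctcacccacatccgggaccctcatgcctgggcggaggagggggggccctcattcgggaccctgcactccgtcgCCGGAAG
ZNF511: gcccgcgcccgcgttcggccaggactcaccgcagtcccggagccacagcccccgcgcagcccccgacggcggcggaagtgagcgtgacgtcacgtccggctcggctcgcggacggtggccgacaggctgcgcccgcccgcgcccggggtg
ZNF789: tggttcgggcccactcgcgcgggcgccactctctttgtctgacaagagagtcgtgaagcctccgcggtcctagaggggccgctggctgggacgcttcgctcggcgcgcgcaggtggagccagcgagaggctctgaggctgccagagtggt

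BMH-21 moved a minority of the expressed ZNF genes, in both directions, and by small amounts. 27 of the 115 were called higher (23.5%) and 7 were called lower (6.09%), at an adjusted p under 0.05 in limma on log2(TPM + 1) with Benjamini-Hochberg adjustment over all 12481 genes tested. Of all genes tested, 23.3% were called higher and 12.9% were called lower. The share of ZNF genes called higher thus lay near the background, and the share called lower was smaller. In bulk RNA of a culture, fewer cells with a transcript and less of it per cell cannot be told apart. Among the 8502 tested genes with a mean of at least 5 TPM, 25% were called higher and 15% lower. The median log2 change was 0.25 over the ZNF genes and 0.19 over all genes tested, and the standard deviation of the log2 changes was 0.39 and 0.67. ZNF219, ZNF226 and ZNF738 were the 3 of 115 that were called with a change of 2-fold or more in log2(TPM + 1), against 8.41% of all genes tested. The 3 BMH-21 libraries lay wholly above the 3 control libraries for 51 ZNF genes and wholly below for 10, against 35% and 17.3% of all genes tested.

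TPM fixes the total of a library, and the median gene of the whole table lay 0.19 above 0 on the log2 scale. With median-of-ratios scaling, which centres the libraries on their typical gene, the median log2 change was 0.08 over the ZNF genes and 0.02 over all genes tested. 18 ZNF genes were then called higher and 15 lower, against 15.1% and 19.1% of all genes tested. The 18 were all among the 27, and all 7 genes called lower in the deposited TPM remained so. With trends on transcript length and GC content removed, 28 ZNF genes were called higher and 14 lower, against 21.9% and 20.2% of all genes tested (42.1% in either direction). The 9 risers not called after median-of-ratios scaling were ZNF626, ZNF653, ZNF335, ZNF384, ZNF343, ZNF586, ZNF410, ZNF3 and ZNF668.

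**Figure D1:**
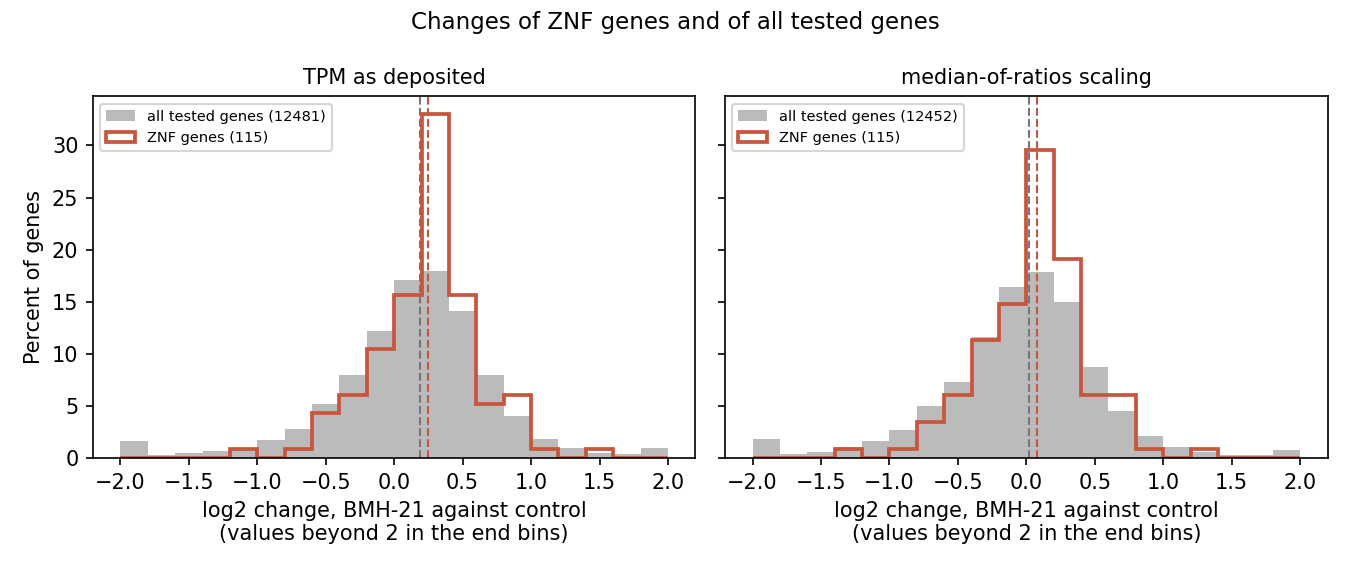
Distribution of log2 changes, BMH-21 against control, as percent of genes per bin, for all tested genes (grey) and the 115 ZNF genes (red outline), in TPM as deposited (left) and after median-of-ratios scaling (right). Dashed lines mark the medians, 0.25 and 0.19 on the left and 0.08 and 0.02 on the right, and the ZNF genes form the narrower distribution.

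12 of the 27 genes called higher and 3 of the 7 called lower were called in the deposited TPM, after median-of-ratios scaling, with trends on transcript length and GC content removed, and in each of the 6 fits without 1 library. The 12 were ZNF219, ZNF226, ZNF528, ZNF707, ZNF419, ZNF276, ZNF655, ZNF324, ZNF589, ZNF174, ZNF672 and ZNF513. The 3 were ZNF738, ZNF789 and ZNF511. The other 19 of the 34 calls were lost in at least 1 fit without a library.

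ZNF219 rose most. In mouse cartilage its protein is known as a partner of SOX9. It measured 7.71, 4.15 and 7.84 TPM in control replicates 1 to 3 and 18.6, 19.6 and 17.04 TPM in BMH-21 replicates 1 to 3. The groups did not overlap, and control replicate 2 was the lowest library. The log2 change was 1.40 ± 0.22 (SE) with an adjusted p of 0.0020. ARHGEF40, which shares exon bases with ZNF219, went the other way, from 21.3 ± 4.20 to 10.99 ± 1.24 TPM (SD, n = 3 each), a log2 change of -0.88 (adjusted p = 0.0054). The shared bases made up 6.3% of ZNF219's exons.

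ZNF226, a gene of 17 fingers on chromosome 19 with the KRAB letters, measured 15.5, 18.1 and 13.2 TPM in the controls and 35.8, 33.2 and 40.3 TPM after BMH-21. Every treated library lay far above every control. Its log2 change was 1.18 ± 0.14 (adjusted p = 0.00052). ZNF528, another 15-finger gene of chromosome 19 with the KRAB letters, measured 3.48, 3.28 and 4.46 TPM in the controls and 7.95, 7.51 and 9.20 TPM after BMH-21. All treated libraries lay above all controls, and the log2 change was 0.96 ± 0.16 (adjusted p = 0.0027). ZNF419, with 11 fingers and the KRAB letters, measured 3.60, 3.41 and 4.31 TPM in the controls and 7.15, 7.75 and 8.43 TPM after BMH-21. It too separated the groups, with a log2 change of 0.88 ± 0.15 (adjusted p = 0.0029).

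ZNF655 was the tightest of these genes. It measured 22.6, 23.1 and 23.1 TPM in the controls and 35.9, 37.2 and 38.5 TPM after BMH-21. Its spread within a group was small against the gap between groups, and the log2 change was 0.67 ± 0.09 (adjusted p = 0.0011). ZNF707, a gene with the KRAB letters, measured 10.9, 5.79 and 8.17 TPM in the controls and 15.8, 18.1 and 15.1 TPM after BMH-21. Its controls ranged widely but stayed below the treated libraries, and the log2 change was 0.93 ± 0.21 (adjusted p = 0.0097). ZNF276 measured 13.3, 7.55 and 12.7 TPM in the controls and 20.3, 23.1 and 18.9 TPM after BMH-21. The groups did not overlap, and the log2 change was 0.87 ± 0.21 (adjusted p = 0.013). 30.7% of its exon bases are shared with FANCA, a Fanconi anaemia DNA repair gene, which fell from 28.3 ± 4.88 to 7.105 ± 1.501 TPM (SD, n = 3 each).

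The other 3 of the 10 largest called rises lost their calls in some fits without 1 library. ZNF580, a 3-finger gene, measured 42.6, 20.8 and 39.1 TPM in the controls and 66.6, 65.5 and 57.7 TPM after BMH-21. Its log2 change of 0.93 (adjusted p = 0.018) lost its call without BMH-21 replicate 1, with an adjusted p of 0.060. ZNF561 measured 4.26, 3.04 and 5.24 TPM in the controls and 9.08, 6.76 and 8.72 TPM after BMH-21, with a log2 change of 0.84 (adjusted p = 0.013). Without BMH-21 replicate 1 or 3 it was not called, with an adjusted p of up to 0.062. Its antisense neighbour ZNF561-AS1 rose as well, from 6.24 ± 0.84 to 12.9 ± 1.83 TPM, and whether the counting used strand is not given in the sources used here. ZNF626 measured 6.31, 13.1 and 9.80 TPM in the controls and 21.4, 13.0 and 24.3 TPM after BMH-21. It was the 1 called gene whose groups overlapped, and it had the lowest GC content of the 115, 35.6%. Its log2 change of 0.94 (adjusted p = 0.035) was not called without control replicate 1 or 3 or without BMH-21 replicate 1 or 3.

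**Figure D2:**
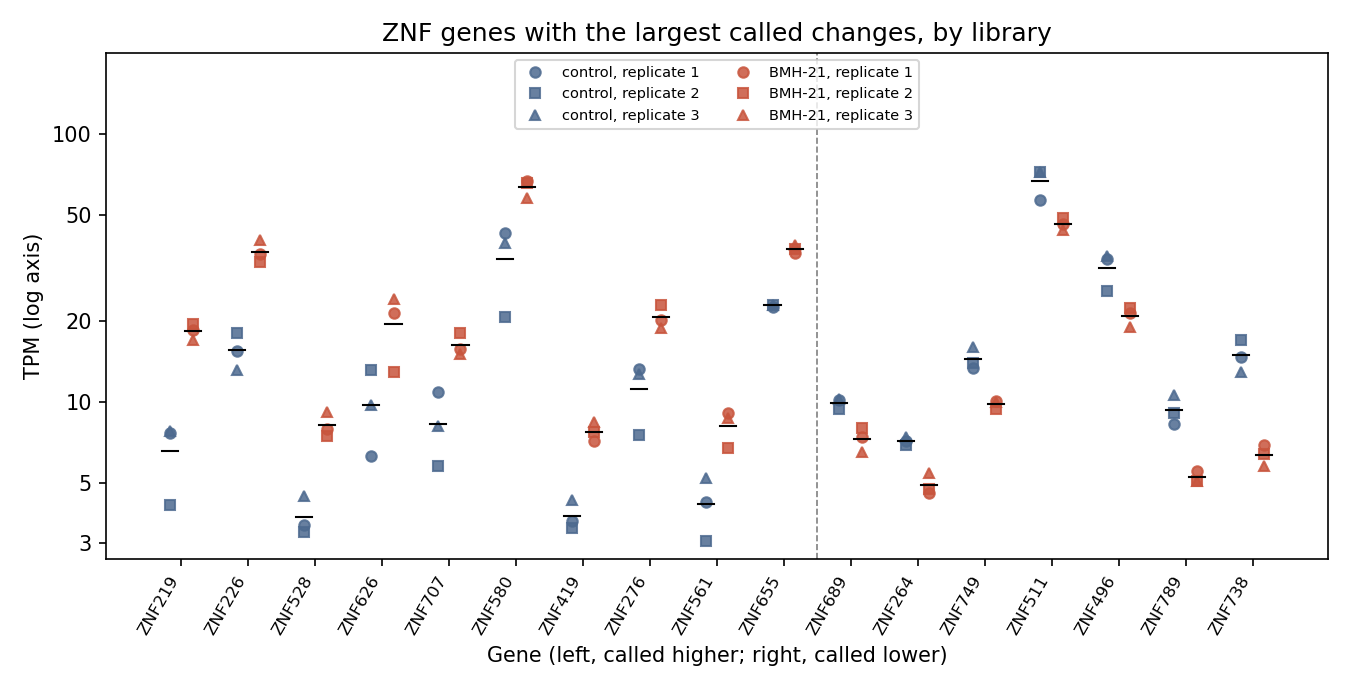
TPM (log axis) of the 10 ZNF genes with the largest called rises (left of the dashed line) and the 7 called lower (right), 1 point per library, with control in blue, BMH-21 in red, symbols for the replicate numbers and a bar at each group mean. ZNF626 is the gene whose groups overlap, at 6.31 to 13.1 TPM in controls and 13.0 to 24.3 TPM after BMH-21.

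Of the 7 genes called lower, ZNF738 fell most. It measured 14.8, 17.1 and 12.9 TPM in the controls and 6.91, 6.44 and 5.78 TPM after BMH-21. Every treated library lay under every control, and it fell by 1.11 ± 0.15 on the log2 scale (adjusted p = 0.00094). ZNF738 lies on chromosome 19, and the finger pattern was not found in its annotated protein. ZNF789, on chromosome 7 with 8 fingers and the KRAB letters, measured 8.28, 9.15 and 10.6 TPM in the controls and 5.55, 5.10 and 5.09 TPM after BMH-21. Its groups were apart, and it fell by 0.72 ± 0.14 (adjusted p = 0.0062). ZNF394, which shares exon bases with it, had a log2 change of 0.17 (adjusted p = 0.31).

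ZNF511, among the 5 most abundant of the 115, measured 56.4, 72.3 and 71.9 TPM in the controls and 46.1, 48.7 and 43.7 TPM after BMH-21. The treated libraries lay close together under the lowest control, and it fell by 0.52 ± 0.12 (adjusted p = 0.011; up to 0.049 without 1 library). TUBGCP2, a gamma-tubulin complex gene that overlaps ZNF511 in its exons, measured 72.5 ± 1.28 and 73.2 ± 3.07 TPM. The other 4 of the 7 lost their calls in some fits without 1 library. ZNF496, known from mouse as a partner of the histone methyltransferase NSD1, measured 31.7 ± 5.05 TPM in the controls and 21.0 ± 1.73 TPM after BMH-21, with an adjusted p of up to 0.068 without 1 library. ZNF749 went from 14.5 ± 1.40 to 9.86 ± 0.37 TPM, with an adjusted p of up to 0.062. ZNF264 went from 7.20 ± 0.24 to 4.93 ± 0.46 TPM and ZNF689 from 9.95 ± 0.47 to 7.31 ± 0.76 TPM, with adjusted p-values of up to 0.14 and 0.18. In the groups of these 4 genes no treated library reached a control.

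Of the 5 most abundant genes, ZNF384 was called higher, ZNF511 lower and the other 3 were not called. ZNF207 (BuGZ), which binds microtubules and the spindle checkpoint protein BUB3, had the highest mean, 84.6 TPM. It measured 77.7, 61.0 and 85.1 TPM in the controls and 89.8, 98.0 and 95.7 TPM after BMH-21, and its groups did not overlap. Its log2 change of 0.35 ± 0.13 was not called (adjusted p = 0.063). ZNF706 measured 68.5 ± 4.98 and 80.6 ± 1.29 TPM, also not called (adjusted p = 0.068). ZNF384, a transcription factor gene that is fused to partner genes in some leukaemias, rose from 44.8 ± 9.66 to 62.8 ± 5.59 TPM (adjusted p = 0.044), a call lost without control replicate 3 or without any 1 of the BMH-21 replicates. 6 of the 115 averaged at least 50 TPM, 65 lay between 10 and 50 TPM and 44 between 5 and 10 TPM, with a median of 12.1 TPM.

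ZNF proteins with a place in ribosome assembly or translation were not called in either direction, 0 of 4 in limma, and 0 of 4 at an unadjusted p under 0.05. Over all genes tested, 36.2% were called in limma, so a count of 0 among 4 genes says little about this class. ZNF593, whose yeast counterpart Bud20 helps export the large ribosomal subunit, measured 58.2, 78.1 and 78.0 TPM in the controls and 59.2, 55.7 and 60.3 TPM after BMH-21. The groups overlapped, through control replicate 1. Its log2 change was -0.27 ± 0.13 (adjusted p = 0.13). After median-of-ratios scaling it was called lower, at -0.47 (adjusted p = 0.048). All of its exon bases are shared with another annotated gene. ZNF622, whose yeast counterpart Rei1 acts in late maturation of the large subunit, measured 43.1 ± 1.246 and 45.7 ± 2.14 TPM. ZNF598, a ubiquitin ligase that senses collided ribosomes, measured 49.3 ± 12.3 and 47.0 ± 4.43 TPM. ZNF330, a nucleolar protein, measured 16.8 ± 1.92 and 18.7 ± 0.63 TPM.

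Genes for RNA-binding ZNF proteins were likewise not called, 0 of 6 in limma, with 2 at an unadjusted p under 0.05 (ZNF207 and ZNF346). The share called over all genes tested was 36.2%, and the lists of this paragraph are too short to be set against it. ZNF346, which binds double-stranded RNA, measured 17.6 ± 2.39 and 22.0 ± 1.56 TPM. ZNF326, which links RNA polymerase II to messenger ribonucleoprotein, measured 5.19 ± 0.74 and 4.85 ± 1.13 TPM. ZNF830, found with the spliceosome, measured 8.37 ± 1.54 and 8.75 ± 0.98 TPM. Of the promoter activators, ZNF76 measured 16.3 ± 1.02 and 19.4 ± 1.49 TPM, and ZNF143 lay under the 5 TPM level. Of the 6 tested genes of the cancer and stress list 0 were called in limma and 1 had an unadjusted p under 0.05, and its 1 member among the 115, the amplified breast cancer gene ZNF217, measured 6.19 ± 0.74 and 6.76 ± 0.83 TPM. Of 3 tested genes linked to the cell cycle, ZNF695 was called lower, from 7.99, 7.82 and 8.90 TPM to 1.58, 0.82 and 0.73 TPM, with a log2 change of -2.20 (adjusted p = 9.5e-05). It averaged 4.64 TPM and is therefore not among the 115. A member chosen for mention after its values were seen is ZNF274, a KRAB protein that brings SETDB1 to the 3′ ends of other ZNF genes. It measured 6.45, 5.16 and 5.16 TPM in the controls and 9.14, 9.63 and 8.88 TPM after BMH-21, a change called in the full fit (adjusted p = 0.010) and not without BMH-21 replicate 1 (adjusted p = 0.051).

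At the 5 TPM level itself, the 3 members just inside were ZNF326 at a mean of 5.02 TPM, ZNF628 at 5.15 TPM and ZNF16 at 5.37 TPM. Just outside lay ZNF101 at 4.97 TPM, ZNF800 at 4.93 TPM and ZNF784 at 4.93 TPM. None of the 3 inside was called, and of the 3 outside ZNF101 was called higher.

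The number of fingers ran from 0 to 31 with a median of 8, by a search for the spacing of cysteines and histidines in the annotated protein of each gene. RefSeq lists 114 of the 115 genes as protein coding and ZNF781 as a transcribed pseudogene, whose 3 fingers come from the GENCODE v29 annotation. Genes with 0 or 1 finger numbered 11, of which 0 were called higher and 1 lower. Of 32 genes with 2 to 5 fingers 8 were called higher and 2 lower, of 36 with 6 to 10 fingers 9 and 2, and of 36 with over 10 fingers 10 and 2. From 2 fingers upward the shares called higher were 25% to 27.8%, near the 23.3% of all genes tested, of which 12.9% were called lower. From 2 fingers upward the median log2 change lay between 0.27 and 0.28, and it was 0.07 for genes with 0 or 1 finger. The rank correlation of finger number with log2 change across the 115 genes was 0.16, a description of genes that are related by descent.

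36 of the 115 genes held the KRAB letters in the annotated protein, DVA followed within 2 residues by F or L in the first 250 residues. That search misses diverged boxes and can match a protein without one. ZNF274, described above as a KRAB protein, lacked the letters and is counted among the genes without them. 12 of the 36 were called higher (33.3%) and 4 lower (11.1%), with a median log2 change of 0.29. Of the 79 without the letters 15 were called higher (19%) and 3 lower (3.8%), with a median of 0.23. Over all genes tested the shares were 23.3% and 12.9%. Among the 12, ZNF528, ZNF419, ZNF561, ZNF251 and ZNF586 had control means of 3.74 to 4.62 TPM. They passed the 5 TPM level only through the BMH-21 libraries, so the choice of members itself adds to the rises with the letters. With median-of-ratios scaling the counts were 9 and 6 of the 36 and 9 and 9 of the 79, with medians of 0.11 and 0.05. The 2 groups differed in transcript GC content, with medians of 49.1% and 57.3%, and with trends on transcript length and GC content removed the counts were 10 higher and 6 lower of the 36 (27.8% and 16.7%) and 18 higher and 8 lower of the 79 (22.8% and 10.1%).

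The 115 genes were spread over the chromosomes with 36 on chromosome 19, 19 on chromosome 16, 11 on chromosome 7, 9 on chromosome 8 and 8 on chromosome 1. On chromosome 19, 12 of 36 were called higher (33.3%) and 3 lower (8.33%), against 23.3% and 12.9% of all genes tested. The counts there were 9 and 4 after median-of-ratios scaling and 15 and 4 with length and GC trends removed. In the deposited TPM, 8 of the 16 that also held the KRAB letters were called higher and 2 lower. Among these 8, and so among the 12, ZNF528, ZNF419, ZNF561 and ZNF586 had control means under 5 TPM. They are members only through the BMH-21 libraries, so the choice of members itself adds to both counts. Off chromosome 19, 15 of 79 were called higher and 4 lower. 69 genes lay within 500 kb of another member, in 18 clusters, and 46 lay alone.

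Neighbours did not all move one way. Over all genes tested 23.3% were called higher and 12.9% lower, and each cluster is too small to be set against these shares. In the cluster at the end of chromosome 19 (57191500 to 58489533), 11 members ran from -0.51 to 0.88 in log2 change. ZNF419, ZNF586, ZNF274 and ZNF324 were called higher and ZNF264 and ZNF749 lower, and these last 2 are the first 2 genes of the cluster. ZNF419 and ZNF586 had control means of 3.77 and 4.62 TPM and are members only through the BMH-21 libraries. A second cluster (55476617 to 56160893) held 8 genes with 2 called higher, 0 lower and a median of 0.46. On chromosome 16, the cluster from 30378312 to 31084196 held 9 genes with 1 called higher and 1 lower, and the cluster from 3112586 to 3409364 held 5 with 1 called higher. On chromosome 7, ZNF789 was called lower while ZNF655 and ZNF3, within the same cluster (99472890 to 100082577), were called higher. The cluster from 149195546 to 149497809 on that chromosome held 5 genes with 0 called, among them ZNF746 (PARIS), a repressor degraded by parkin.

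**Figure D3:**
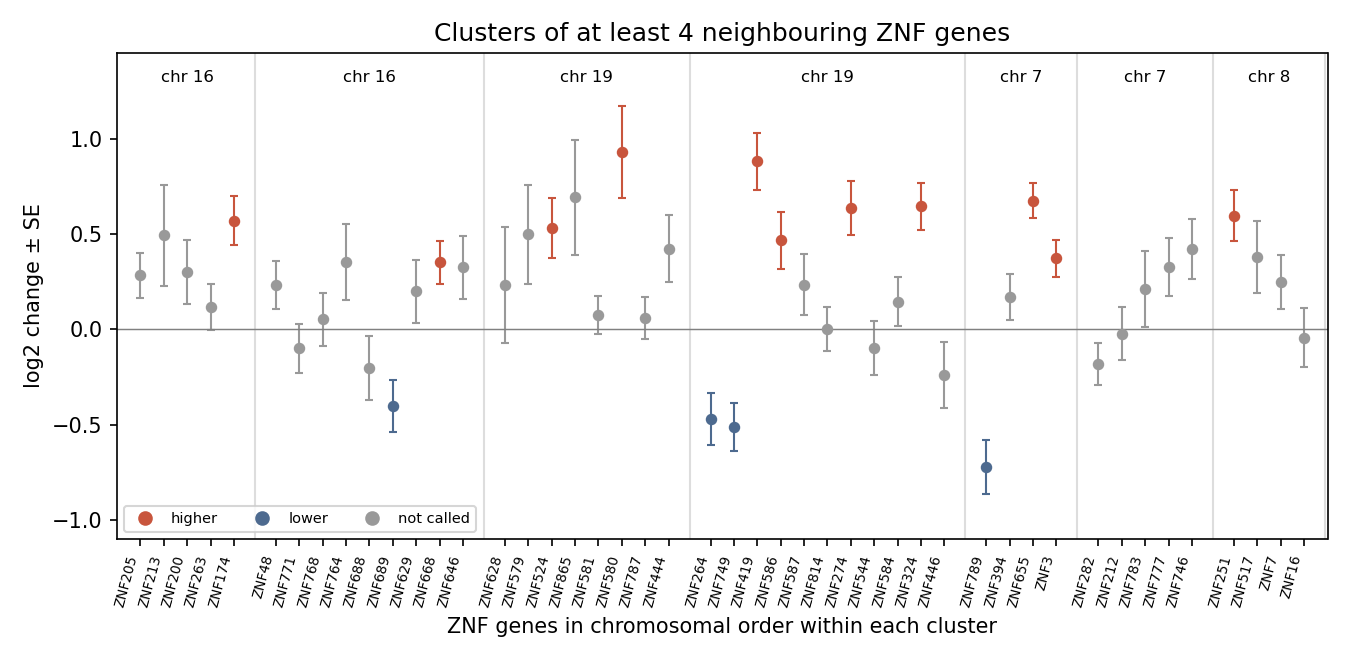
log2 change ± SE, BMH-21 against control, of the genes in the 7 clusters with at least 4 ZNF genes, in chromosomal order within each cluster, with called rises in red, called falls in blue and other genes in grey. The chromosome 19 cluster that begins with ZNF264 spans -0.51 to 0.88.

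RefSeq gave a promoter for 97 of the 115 genes, 250 bases before to 50 after the annotated start. The ETS letters CCGGAAG, on either strand, stood in 45 of them (46.4%), against 20.1% of 9779 promoters of tested genes and 10.7% of all 27305 promoters. ZNF genes between 1 and 5 TPM held them about as often, in 67 of 149 (45%). Among the 115, members with the KRAB letters held them in 58.1% of promoters and other members in 40.9%. On chromosome 19 the share was 54.5%, and off it 42.2%. These groups share genes with those called higher, and the overlap was not tested. By call, the ETS letters stood in 17 of 24 promoters of genes called higher (70.8%). They stood in 2 of 6 of genes called lower (33.3%) and 26 of 67 of the rest (38.8%). Over all genes tested the shares were 22%, 16% and 20.2%. Of the ZNF genes called higher, 5 had control means under 5 TPM (ZNF528, ZNF419, ZNF561, ZNF251 and ZNF586) and are members only through the BMH-21 libraries. ZNF528 and ZNF419 hold the letters in their printed windows, so the choice of members enters the share among genes called higher. The GC box GGGCGG stood in 70.8%, 83.3% and 65.7% of the same 3 groups of ZNF promoters, and in 70.7% of promoters of tested genes. Letters named for the CCAAT box, NRF1, YY1, CRE, ZNF143, E2F, E-box and CHR were also searched. CCAAT stood in 41.7%, 50% and 35.8% of the 3 groups, and the ZNF143 letters in 0%, 16.7% and 8.96%. Of all patterns searched, the ETS letters had the widest gap between ZNF genes called higher and not called. No allowance was made for the number of patterns. The p53 response element, 2 half-sites by name, stood in 0 of the 97, and in 3 of 9779 promoters of tested genes (0.0307%). In the printed windows, ZNF528 holds the ETS letters at -37 and 15 from the start, ZNF419 at -17 and ZNF276 at -14, while the ZNF219 promoter held none of the motifs searched. A match is a run of letters, and whether a factor was bound there was not measured.

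A list of co-repressor and wider chromatin genes, called the co-repressor list here, was counted in the same fit. It joins TRIM28 and SETDB1 with genes of heterochromatin, DNA methylation and histone methylation, among them UHRF1, DNMT1 and SUV39H1. Of its 28 genes 27 were tested, 2 called higher (7.41%) and 6 lower (22.2%), against 23.3% and 12.9% of all genes tested. TRIM28 measured 668.8, 540.6 and 729.4 TPM in the controls and 525.3, 595.1 and 481.5 TPM after BMH-21. The groups overlapped, and the log2 change of -0.27 ± 0.13 was not called in the deposited TPM (adjusted p = 0.14). After median-of-ratios scaling it was called lower, at -0.47 (adjusted p = 0.022). SETDB1 measured 28.4, 21.7 and 26.3 TPM in the controls and 29.4, 34.0 and 28.8 TPM after BMH-21, not called (adjusted p = 0.14).

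The largest fall of that list was UHRF1, which guides maintenance of DNA methylation, at 35.0, 19.4 and 32.5 TPM in the controls and 4.37, 3.91 and 2.68 TPM after BMH-21, a log2 change of -2.66 ± 0.24 (adjusted p = 0.00013). SUV39H1, a histone H3 lysine methyltransferase, fell from 26.3 ± 2.88 to 4.20 ± 0.43 TPM (log2 change -2.39). The maintenance DNA methyltransferase DNMT1 fell from 68.5 ± 13.7 to 35.5 ± 2.32 TPM and the heterochromatin protein CBX5 from 13.1 ± 0.42 to 7.15 ± 0.37 TPM. RBBP7, a histone-binding subunit of several chromatin complexes, fell from 60.8 ± 4.81 to 37.0 ± 1.65 TPM. CBX1 was the sixth gene called lower and lost its call in 5 of the 6 fits without 1 library. The 2 called higher were TASOR, a subunit of the HUSH silencing complex, at 2.04 ± 0.66 and 3.70 ± 0.55 TPM, and EHMT1, a histone H3 lysine methyltransferase, at 27.7 ± 2.03 and 38.5 ± 3.65 TPM. TASOR was not called in 4 of the 6 fits that left out a library (control replicates 1 and 2, BMH-21 replicates 1 and 3), and EHMT1 in 1 (BMH-21 replicate 1). With median-of-ratios scaling 0 of the 27 were called higher and 10 lower (37%), against 15.1% and 19.1% of all genes tested.

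Other zinc finger families were counted in the same fit, in which 23.3% of all genes tested were called higher and 12.9% lower. The 170 ZNF genes between 1 and 5 TPM had 36 called higher and 9 lower with a median log2 change of 0.29. ZSCAN genes, which carry a SCAN dimerisation domain, had 8 of 13 called higher and 0 lower with a median of 0.49, and 5 called higher after median-of-ratios scaling. ZBTB genes, which carry a BTB domain, had 10 of 32 called higher and 1 lower with a median of 0.31. ZNF symbols with a letter after the number had 9 of 25 called higher and 0 lower, and 4 of 24 and 0 after median-of-ratios scaling. In the deposited TPM 1 of 6 ZKSCAN genes was called higher and 0 lower, 1 of 11 ZFP genes higher and 0 lower, and 3 of 13 KLF genes higher and 1 lower. Whether the 115 differ from any of these families was not tested.

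Single libraries of both groups touched many of these values. Control replicate 2 was the lowest of the 3 controls for 87 of the 115 genes (75.7%), against 60.2% of all genes tested. The ZNF transcripts had a median GC content of 55.2%, from 35.6% to 71.1%, against 50.4% for genes tested. Across the 115 genes, the deviation of control replicate 2 from its group mean had a rank correlation of -0.47 with GC content. BMH-21 replicates 2 and 3 had values of 0.54 and -0.54. BMH-21 replicate 3 was the lowest of its group for 61 of the 115 genes (53%), against 38.6% of all genes tested. The log2 change itself had a rank correlation with GC content of 0.10, and -0.05 without control replicate 2. Summed over the 115 genes, TPM was 1987, 1676 and 2031 in the controls and 2195, 2309 and 2160 after BMH-21, so the lowest sum was that of control replicate 2. Without it, 27 ZNF genes were called higher and 11 lower, with a median log2 change of 0.17 against 0.12 for all genes tested.

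**Figure D4:**
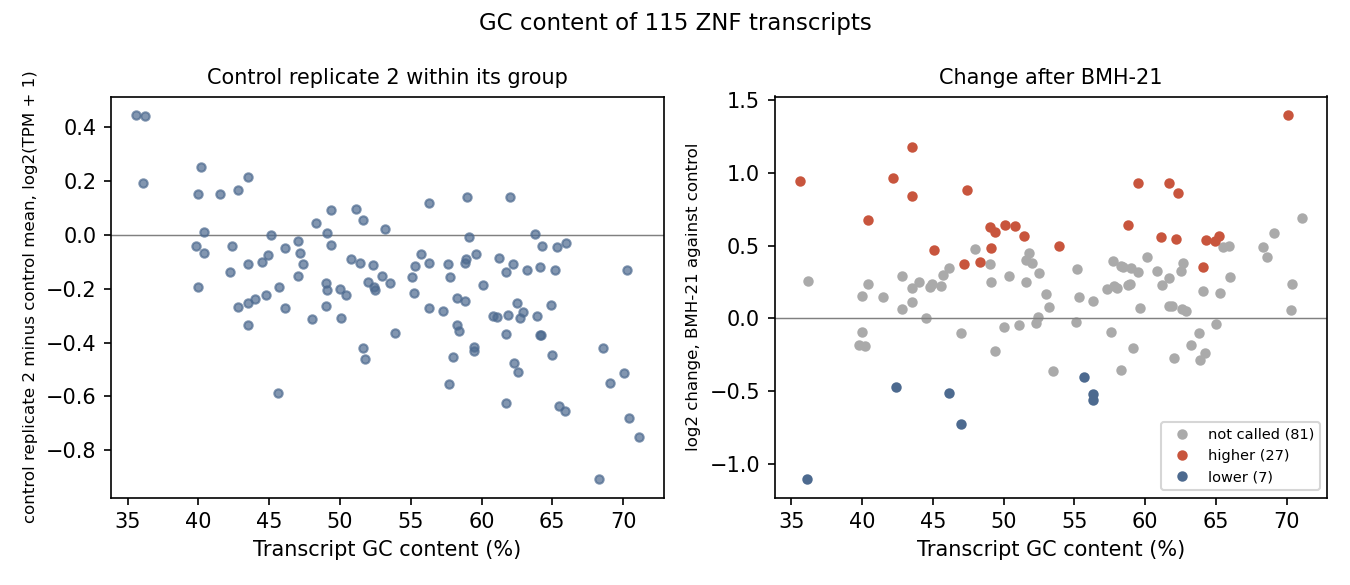
Transcript GC content in percent against, on the left, the deviation of control replicate 2 from the mean of the controls on the log2(TPM + 1) scale, and, on the right, the log2 change after BMH-21, 1 point per ZNF gene. The deviation runs lower at high GC content (rank correlation -0.47), and the log2 change shows little relation to it (0.10).

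The cells carried melanoma markers in part. SOX10, a neural crest factor, measured 540.5 TPM in the controls and 654.3 TPM after BMH-21, and MIA, S100A1, S100B, CSPG4 and PRAME lay between 77.5 and 1246 TPM in the controls. Of the 8 melanoma markers tested 3 were called higher, against 23.3% of all genes tested. S100B went from 77.5 to 111.1 TPM (adjusted p = 0.0017), S100A1 from 316.9 to 411.1 TPM (adjusted p = 0.013) and PMEL from 0.81 to 1.70 TPM (adjusted p = 0.019). The calls of S100A1 and PMEL were lost when BMH-21 replicate 1 or BMH-21 replicate 3 was left out. The pigment genes were low: MLANA was at 0 in every library, TYR, DCT and TYRP1 had group means under 1 TPM, and MITF measured 1.42 and 1.29 TPM. The 12 markers summed to between 2337 and 2565 TPM in the controls and between 2458 and 2470 TPM after BMH-21. Of 4 keratinocyte markers 2 were tested. KRT10 was called higher, from 25.4 to 41.7 TPM, and KRT14 was not called, at 3.54 and 3.67 TPM. KRT5 and DSG1 had group means under 1 TPM. The list summed to 27.1 to 31.8 TPM in the controls and 44.0 to 48.4 TPM after BMH-21. Of the immune markers 1 was tested, LYZ, which was called higher, from 2.69 to 9.39 TPM. CD3E and CD14 had group means under 1 TPM. The sum of LYZ, CD3E and CD14 was 2.75 to 2.90 TPM and then 8.53 to 10.95 TPM. With 2 and 1 genes tested, the keratinocyte and immune lists are too short to be set against the 23.3% of all genes tested. The 3 endothelial and 2 liver markers had group means under 1 TPM, and KRT1 and PTPRC were not analysed here. The part of these markers in the ZNF values was not tested.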

How the data were processed

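RNA-seq values of 6 A375 libraries were used, 3 control and 3 BMH-21, grouped by their titles. The authors deposited TPM per gene symbol. STAR, Salmon and GRCh38 are named per the submitters' processing notes, with versions, annotation and strand setting not given in the sources. Per the labels, ribosomal RNA was depleted, while the molecule is named as polyadenylated RNA. TPM keeps no read totals, so the depth per sample is unknown, and counting error could not be given. Salmon divides reads among similar sequences, so values of ZNF genes with close paralogs or shared exons are uncertain.

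From these values, BMH-21 was compared with control on log2(TPM + 1) with limma 3.58.1 in R 4.3.3 (variance trend, two-sided, Benjamini-Hochberg over 12481 genes with a mean of at least 1 TPM). The pseudocount of 1 understates the change of low genes. Unless stated, ± after TPM is the SD over 3 libraries, and ± after a log2 change is the SE. An exact permutation test of 3 against 3 cannot go below 0.1 and was not used. The script was tested on simulated data.

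The members, lists and alternatives were chosen with earlier results of these data known. 2 symbols are not reported here. Named genes were the 10 largest called rises and falls, the 5 highest means, 3 on each side of the 5 TPM level, the role lists, and, of the co-repressor list, TRIM28, SETDB1 and the largest called rise and fall; other co-repressor genes called, overlap partners, ZNF274 and ZNF746 were added after their values were seen. Alternatives were median-of-ratios scaling, quantile normalization, removal of length and GC trends, another pseudocount, other filters, other member levels, a replicate block and each library left out. Transcript GC content, exon overlap and finger and KRAB letters came from GENCODE v29, used because no protein table was at hand, and coordinates and promoters from RefSeq (GRCh38.p14), with 115 of 115 members matched for coordinates. Replicates are called biological by the submitters.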

Additional observations from a re-analysis of the deposited data

How the results depend on the processing

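Of the 115 ZNF genes, 27 were called higher and 7 lower with a median log2 change of 0.25. Leaving out 1 library in turn gave 13 to 27 called higher, 3 to 11 called lower and medians of 0.17 to 0.32; for all genes tested it gave 2784 to 4794 calls, and for the co-repressor genes 5 to 10 against 8. The fewest rises came without BMH-21 replicate 1 (13) and BMH-21 replicate 3 (15), and the most falls without control replicate 2. Leaving out both libraries numbered 2 gave 14 lower and 15 co-repressor calls. Median-of-ratios scaling gave 15 lower and a median of 0.079, quantile normalization 13 and 0.083, and removal of length and GC trends 14 and 0.124; by their construction these shift the typical gene towards 0. Members at a control mean of 5 TPM gave 12 lower, at a mean of 10 TPM 4 lower, and at a mean of 2 TPM 52 higher and 14 lower, with different numbers of genes. Other than the replicate block, the remaining alternatives moved these counts by less than 1.5 times.

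Deviations of same-numbered libraries showed no positive correlation, at -0.045, -0.34 and -0.078. Library trends with GC content also enter these values. Over all genes tested, the rank correlation with GC content was -0.249 in control replicate 2 and 0.585 in BMH-21 replicate 2. Whether the replicate numbers pair the samples could therefore not be judged. With a replicate block 16 genes were called higher (13.9%) and 4 lower (3.48%), against 16.1% and 9.73% of all genes tested. Over 15 alternatives of 38 named genes, 503 of 570 values kept their side of the threshold, 51 lost the call, 16 gained one and 0 called values reversed. Of the 503, 21 were uncalled values that changed sign. Depth is unknown, so what it limits could not be given.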
